A study of Ovis aries with 6 samples.

Results

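The genes of TGF-beta, BMP and activin signalling were followed in perirenal adipose tissue (fat that surrounds the kidney) from sheep before and after birth. Members were chosen by gene name in the full table of genes (names beginning with BMP, BMPR, GDF, TGFBR or ACVR, and the inhibin, TGFB, SMAD, noggin, follistatin and myostatin names, among others), which gave 49 of 24390 genes. The rule used no measured value, though members were chosen with earlier results of these data known. Every animal was a wild-type, pure-bred Merino without treatment per the labels, and the groups were 3 fetuses at 132 days post conception (term at 150 days) and 3 lambs. Lamb age is given as 80 days after birth, as 89 days old and as 12 weeks. The lamb titles also hold an unexplained tag, VEH. The design text calls the 3 libraries of each stage biological replicates, so n = 3 per stage throughout. The comparison asks which transcripts of this signalling system differ between late fetal fat, which is held to be brown-like, and the whitening fat of the lamb.

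In this family, secreted ligands bind pairs of type I and type II receptor kinases, and the type I kinase phosphorylates receptor SMAD proteins, which enter the nucleus with SMAD4. TGF-beta and activin ligands work mainly through SMAD2 and SMAD3, and BMP and many GDF ligands through SMAD1, SMAD5 and SMAD9. SMAD6 and SMAD7 inhibit the receptors, and follistatin or noggin trap ligands outside the cell. In adipose tissue TGF-beta is known to hold back fat cell differentiation, while several BMP ligands favour commitment to the adipocyte lineage and brown fat formation.

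The libraries held between 15907128 and 19150428 counts. Values are CPM (counts scaled to a common library size after TMM adjustment, which corrects for differences in library composition), and differences are log2, lamb minus fetal, ± SE, with Benjamini-Hochberg adjusted p-values from edgeR over all 13624 genes tested. Genes of the mitochondrial genome took 27.5 to 40.7% of the counts in fetal and 7.37 to 8.29% in lamb libraries. Scaling by library totals instead of TMM moved the median difference of all genes up by 0.47. Adipocyte markers fitted the labelled tissue, with summed CPM of 13234 to 16560.1 in fetal and 27117 to 37664 in lamb libraries over 6 genes. All 10 markers of urothelium and other epithelium were lower in lambs, with sums of 61.0 to 213 CPM in fetal and 0.4998 to 0.986 CPM in lamb libraries. Macrophage markers were higher for 7 of 8 (sums of 118 to 222 against 1127 to 1375 CPM), and brown adipocyte markers were lower for 4 of 5 (1387 to 2539 against 475 to 587 CPM). All 3 red cell markers were lower too (358 to 1271 against 30.5 to 56.3 CPM). Single genes carried much of these sums. MRC1 was at 41.9 to 69.1 CPM in fetal and 819 to 1144 CPM in lamb libraries. UCP1 was at 1103 to 2164 against 387 to 525 CPM, and HBBB at 321 to 1217 against 14.7 to 27.1 CPM. Of 9 fibroblast and preadipocyte markers, 2 were higher and 1 lower. Their sums were 11624, 5948 and 9118 CPM in fetal libraries 1, 2 and 3 and 5914 to 6657 CPM in lamb libraries. Sums of skeletal muscle markers were 110, 18.8 and 43.4 CPM in fetal and 6.97 to 10.5 CPM in lamb libraries. Over all genes tested, 22.0% were higher and 22.7% lower. The part of these marker shifts in the members' results was not tested. In bulk tissue, fewer cells of a type and less RNA per cell cannot be told apart.

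Of the 49 members, 38 had enough counts to be tested. 4 members (BMP10, BMP15, INHBC and INHBE) had 0 counts in all libraries, and 7 (GDF2, GDF3, GDF10, GDF15, INHA, BMPR1B and NOG) stayed at or below 0.955 CPM in every library. Among the 38, 15 were higher in lambs, 4 were lower and 19 did not pass the test. Over all genes tested 44.7% passed, 22.0% higher and 22.7% lower. Counts per role given below are from few genes and stand beside the same shares. The median difference of the tested members was 0.36, against -0.01 for all genes tested. The increases were 4 BMP ligands, GDF6, 3 type I receptors, TGFBR3, SMAD2, SMAD4, both inhibitory SMADs, FSTL1 and FSTL3, and the decreases were GDF5, TGFBR1, SMAD3 and SMAD5. GDF5 and GDF6 passed the filter on low counts only through the stage in which they were high. The count of higher members fell to 8 without fetal library 2, and with scaling by library totals it was 20 higher and 2 lower. Calls of 8 members held in all 13 alternative settings: BMP6, GDF5, ACVRL1, TGFBR1, SMAD2, SMAD6, FSTL1 and FSTL3.

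**Figure D1:**
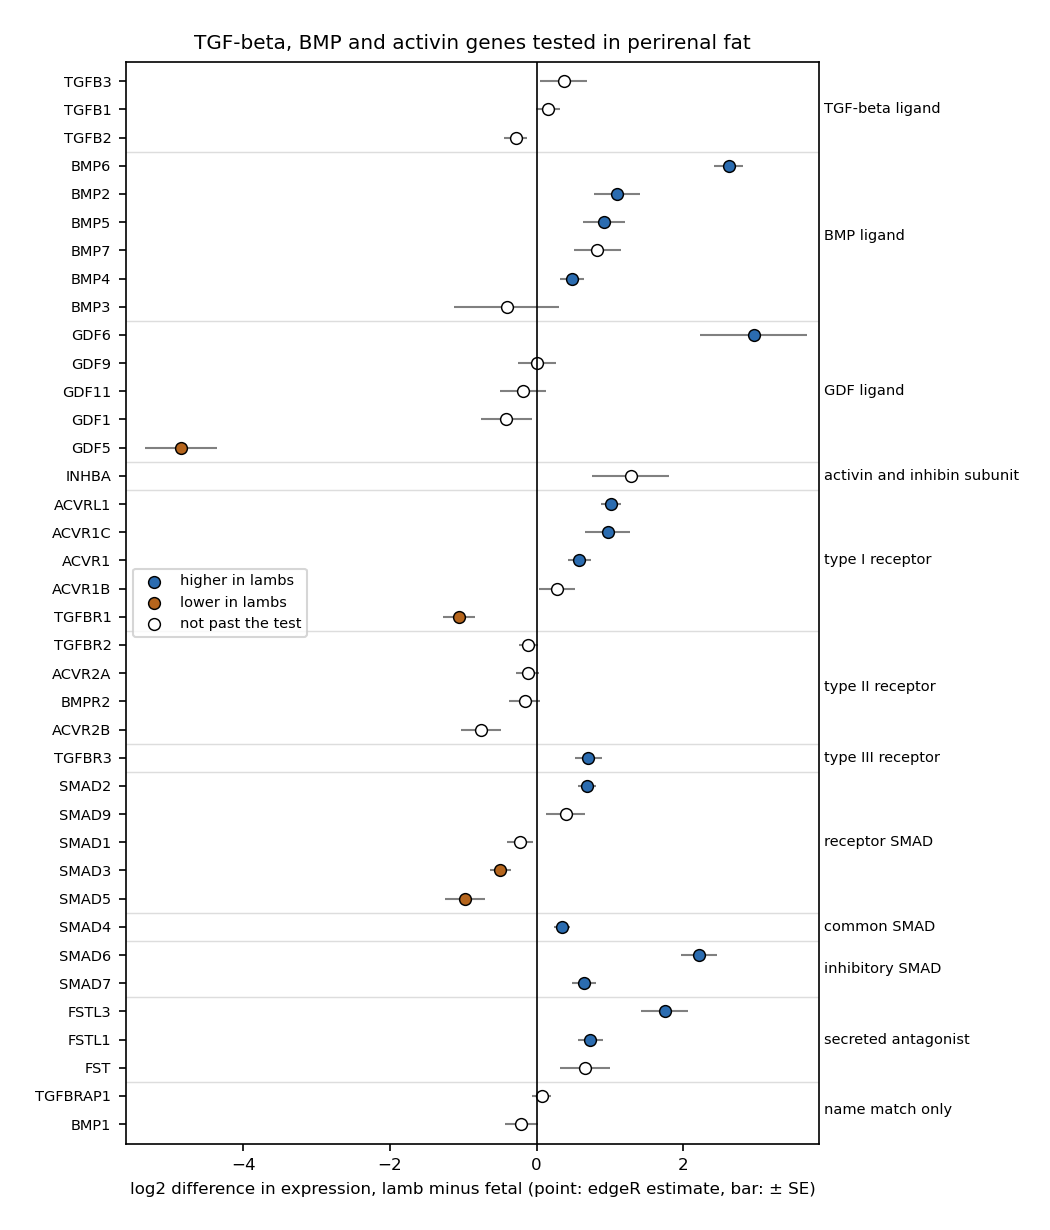
Log2 difference in expression, lamb minus fetal, of the 38 tested members, grouped by role; points are edgeR estimates, bars ± SE, and filled points passed the test (blue higher, brown lower in lambs). BMP6, GDF6 and SMAD6 lie farthest to the right, at 2.62, 2.96 and 2.21, and GDF5 farthest to the left at -4.85.

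Of the 3 TGF-beta ligand genes, 0 passed the edgeR test, 0 had an unadjusted p under 0.05 and 0 passed the DESeq2 Wald test. TGFB1, the most widely expressed TGF-beta, was at 30.8, 28.0 and 38.9 CPM in fetal and 34.2, 42.1 and 32.1 CPM in lamb libraries (difference 0.15 ± 0.16, adjusted p = 0.485). The stages overlapped. TGFB3 was at 6.27 ± 2.86 and 8.12 ± 1.38 CPM (0.37 ± 0.32), and TGFB2 at 8.47 ± 0.402 and 6.94 ± 0.679 CPM (-0.29 ± 0.16, adjusted p = 0.177; SD, n = 3). All 3 lamb values of TGFB2 were below all fetal values under TMM, but with scaling by library totals its difference was 0.18. With that scaling the difference was 0.61 for TGFB1 (adjusted p = 0.05002) and 0.82 for TGFB3 (adjusted p = 0.0809), neither past the test. By the authors' mean RPKM (counts per length of gene and size of library), TGFB1 made up 67.9% of the summed level of these ligands in fetuses and 72.1% in lambs.

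BMP ligand genes were higher in lambs for 4 of 6 tested, and the change was largest for BMP6. BMP6, a ligand known for its part in iron balance and made by endothelial and fat cells (ENSOARG00000017264, chromosome 20, 46486138 to 46512150 on Oar v3.1), had fetal values of 3.35, 3.90 and 2.69 CPM and lamb values of 17.1, 20.4 and 23.3 CPM. The lowest lamb library was above every fetal library. The difference was 2.62 ± 0.20 (adjusted p = 1.08e-04), a 6.14-fold increase. By the authors' mean RPKM, BMP6 held 27.3% of the summed level of the BMP ligands in fetuses, close to BMP5 (25.04%) and BMP7 (23.2%). In lambs it held 64.3%, and the next, BMP5, 11.4%. RPKM has no replicate values here, so these shares carry no error. BMP8A and BMP8B were not analysed and are not in the sum. The lamb to fetal log2 ratio by RPKM differed from that by counts scaled to library totals by over 0.5 in 6 tested members (BMP5 -0.65, BMP7 -0.50, GDF5 0.64, GDF6 -1.26, SMAD5 0.87 and SMAD7 -0.54), so the shares of BMP5 and BMP7 are uncertain.

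BMP2, which promotes bone formation and adipocyte commitment, was at 1.55, 1.25 and 1.01 CPM in fetal and 2.52, 3.48 and 2.20 CPM in lamb libraries (1.10 ± 0.31, adjusted p = 0.0241). All lamb values were above the fetal ones. BMP5 was at 1.61, 1.54 and 2.15 against 3.41, 2.59 and 4.05 CPM (0.92 ± 0.28, adjusted p = 0.0322), again without overlap. BMP4, a ligand that commits mesenchymal precursors to the fat lineage, was at 9.74, 8.24 and 6.98 against 12.0, 11.3 and 11.7 CPM (0.49 ± 0.16, adjusted p = 0.0429). The lamb values of BMP4 lay close together and above every fetal value. These calls were weak: that of BMP2 was lost without fetal library 2, fetal library 3 or lamb library 2, and that of BMP5 without fetal library 1 or 2 or lamb library 1 or 3. That of BMP4 was lost without any 1 library other than fetal library 1, in the fit with replicate blocks and with library totals that leave out mitochondrial genes. Over the alternatives adjusted p reached 0.0862 for BMP2, 0.0978 for BMP5 and 0.136 for BMP4.

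BMP7, which drives brown fat formation, was at 3.11, 1.32 and 2.45 CPM in fetal and 4.30, 4.05 and 3.949 CPM in lamb libraries. Its lamb values were all above the fetal ones, but the difference of 0.83 ± 0.32 did not pass (adjusted p = 0.0680). It passed without fetal library 1 and with library totals, and over the alternatives adjusted p ran from 0.0184 to 0.139. BMP3, an atypical member that opposes other BMP ligands, was uneven within both stages, between 0.662 and 2.51 CPM in fetal and between 0.2499 and 2.08 CPM in lamb libraries (-0.41 ± 0.72).

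GDF5 and GDF6 are close relatives that signal through BMP receptors and are known from joint formation. GDF5 (ENSOARG00000012471, chromosome 13, 64242058 to 64245799) had 34, 21 and 47 counts in the fetal and 2, 1 and 1 in the lamb libraries, or 2.03, 1.54 and 2.80 against 0.0988, 0.0519 and 0.04998 CPM. Every fetal library was above every lamb library. The difference of -4.85 ± 0.49 (adjusted p = 2.85e-04) was the largest decrease among the members, about 28.9-fold. The epithelial markers also fell, with sums of 213, 83.1 and 61.0 CPM in the fetal libraries. Their part in the GDF5 result was not tested.

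GDF6 (ENSOARG00000005563, chromosome 9, 80656887 to 80673554) had 3, 1 and 2 counts in the fetal and 39, 10 and 13 in the lamb libraries, or 0.179, 0.0736 and 0.119 against 1.93, 0.519 and 0.650 CPM. The stages did not overlap, and lamb library 1 stood above the other lambs. The difference was 2.96 ± 0.73 (adjusted p = 0.0134), from few fetal counts. GDF6 fell below the filter on low counts when mitochondrial genes were removed. Its difference was 2.15 without lamb library 1, and did not pass without fetal library 2 (adjusted p 0.00317 to 0.0502 over the alternatives). Counts of GDF5 per count of GDF6 within a library were 11.3, 21.0 and 23.5 in fetuses and 0.0513, 0.10 and 0.0769 in lambs. Each gene had few counts in its low stage and passed the filter only through its high stage. The pair was also chosen after its values were seen, so the ratios add no support to either difference.

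The remaining GDF genes with a test did not pass. GDF9, best known from the oocyte, was at 2.15 ± 0.376 and 2.15 ± 0.114 CPM (0.00 ± 0.26), and GDF11, a close relative of myostatin, at 1.17 ± 0.0902 and 1.03 ± 0.201 CPM (-0.19 ± 0.31). GDF1 was at 3.19 ± 0.799 and 2.39 ± 0.884 CPM (-0.41 ± 0.34). GDF1 overlaps CERS1 in the table, and reads of the pair may not be separable. GDF15, a stress-induced hormone, had at most 2 counts in any library. Myostatin, the muscle growth inhibitor, is listed under its older name GDF-8, which the naming rule does not take in. It had 2, 0 and 2 counts in the fetal and 8, 3 and 6 in the lamb libraries, too few to be tested.

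Of 4 activin and inhibin subunit genes, only 1, INHBA, had enough counts to be tested. INHBA, which forms activin A, was at 1.196, 0.368 and 0.656 CPM in fetal and 0.988, 1.87 and 2.65 CPM in lamb libraries. The lowest lamb library lay within the fetal range, and the difference of 1.28 ± 0.52 did not pass (adjusted p = 0.0810). It passed without fetal library 1, without lamb library 1 and with library totals (adjusted p over the alternatives 0.0222 to 0.232). INHA, the inhibin alpha subunit, was at 0.525 ± 0.0789 and 0.419 ± 0.0486 CPM, below the filter. INHBC and INHBE, known mainly from the liver, had 0 counts in every library. Where no count was seen, the limit (3 counts of a library's total, counting error only) was 0.157, 0.159 and 0.171 CPM for fetal libraries and 0.174, 0.189 and 0.174 CPM for those of lambs. The authors' mean RPKM was not always 0 for such genes. In fetuses and lambs it was 0.0072 and 0.057 for INHBC, 0.034 and 0.109 for BMP15, and 0 and 0.0163 for BMP10. Why counts and RPKM differ there was not tested. INHBB, BMP8A, BMP8B, BMPR1A and GREM1 were not analysed here.

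**Figure D2:**
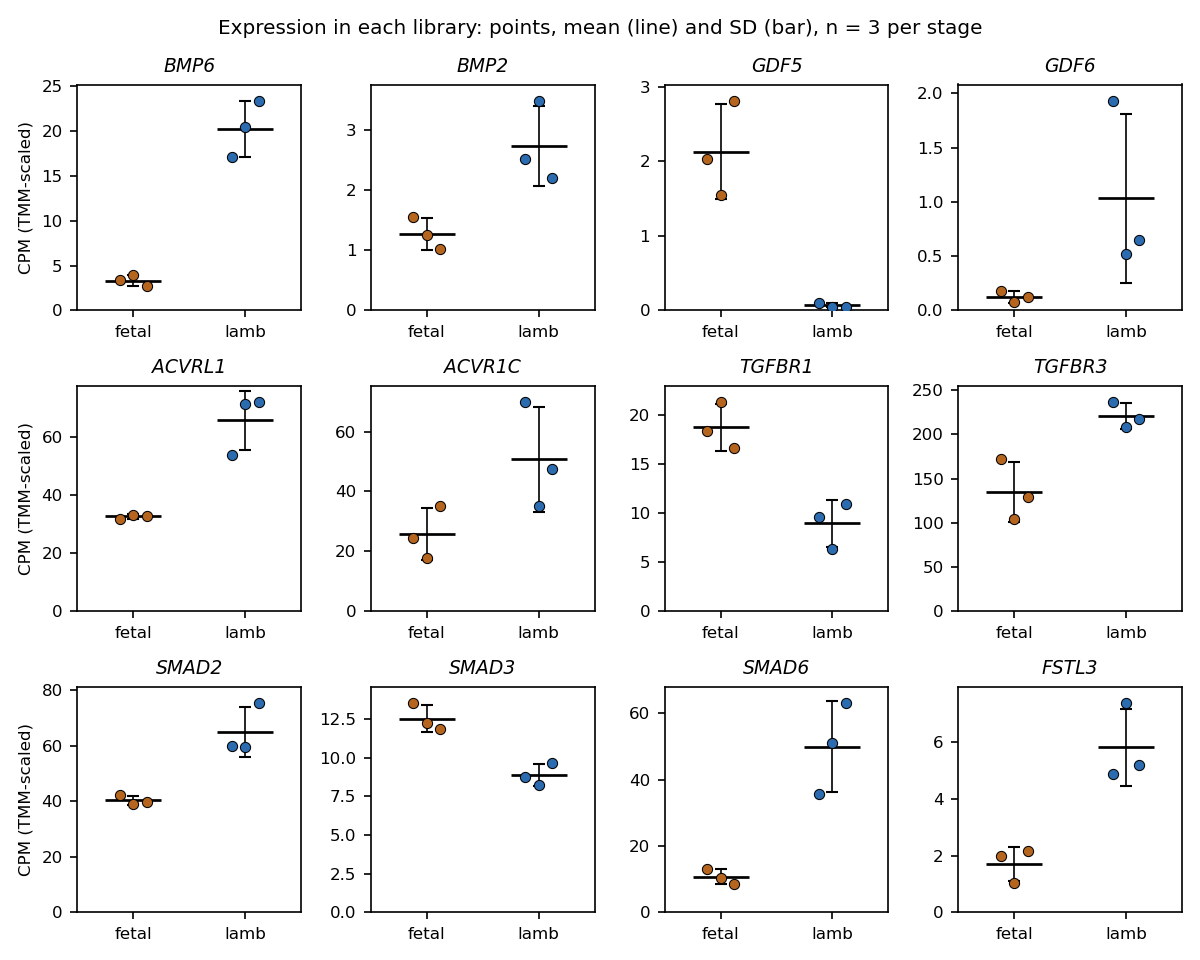
CPM after TMM scaling of 12 members in each library, with points for libraries, a line for the stage mean and a bar for the SD (n = 3 per stage). All 12 were taken from members past the test, so separation of the stages is no further result. Fetal and lamb points are separate in every panel but that of ACVR1C, where fetal library 3 (35.2 CPM) lies above lamb library 2 (35.1 CPM).

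Type I receptor genes moved in both directions: 3 of 5 tested rose, 1 fell and 1 did not pass. ACVRL1 (ALK1), the endothelial receptor for BMP9 and BMP10 (ENSOARG00000017242, chromosome 3, 134229362 to 134236131), was at 31.7, 33.3 and 33.0 CPM in fetal and 54.0, 71.2 and 72.0 CPM in lamb libraries. The fetal values lay within a narrow range, and every lamb value was above them. The difference was 1.01 ± 0.14 (adjusted p = 9.82e-04). ENG, the endoglin co-receptor of ACVRL1 and no member here, went from 258 ± 34.4 to 394 ± 56.1 CPM (0.61 ± 0.16, adjusted p = 0.0190), a call lost without fetal library 3 or lamb library 3 (adjusted p 6.60e-04 to 0.0720 over the alternatives). The genes of their ligands, BMP9 (listed as GDF2) and BMP10, had at most 11 and 0 counts in a library.

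Of 6 endothelial markers, 1 was higher (TEK), 2 were lower (CDH5 and TIE1) and 3 did not pass. Their sums were 1445 to 1823 CPM in fetal and 1481 to 1581 CPM in lamb libraries, and the stages overlapped. Their part in the results for ACVRL1, ENG and BMP6 was not tested.

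TGFBR1 (ALK5), the type I receptor for TGF-beta (ENSOARG00000010971, chromosome 2, 48391016 to 48456740), was at 18.4, 21.3 and 16.7 CPM in fetal and 9.63, 6.33 and 10.9 CPM in lamb libraries. Every lamb value was below every fetal value. The difference was -1.06 ± 0.22 (adjusted p = 0.00586). With library totals it was -0.58 and still passed. Within a library, counts of ACVRL1 per count of TGFBR1 were 1.73, 1.56 and 1.98 in fetuses and 5.60, 11.2 and 6.58 in lambs. No scaling of libraries can alter this ratio, but the pair was chosen after its values were seen. The ratio adds no support to either difference.

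ACVR1C (ALK7), the receptor for activin B and related ligands, is known for high levels in adipocytes, where it restrains fat breakdown. It was at 24.6, 17.9 and 35.2 CPM in fetal and 69.8, 35.1 and 47.3 CPM in lamb libraries. Lamb library 2 lay within the fetal range. The difference of 0.97 ± 0.31 (adjusted p = 0.0355) lost its call without fetal library 1 or 2 or lamb library 1 or 3 (adjusted p 0.00567 to 0.109 over the alternatives). ACVR1 (ALK2), a BMP receptor, was at 23.7, 18.4 and 21.5 against 27.0, 32.6 and 35.8 CPM (0.58 ± 0.15, adjusted p = 0.0165). Its stages did not overlap, and the call was lost only without fetal library 2 (adjusted p 0.00256 to 0.0560 over the alternatives).

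ACVR1B (ALK4), the activin receptor, was at 3.21 ± 0.805 and 3.90 ± 0.313 CPM (0.28 ± 0.25, adjusted p = 0.386). BMPR1B, a BMP receptor known in sheep for its fecundity allele, had at most 3 counts in any library. On the RPKM scale the type I receptors stood in the order ACVRL1, ACVR1C, TGFBR1, ACVR1, ACVR1B and BMPR1B in fetuses (23.4, 14.8, 11.1, 9.19, 2.27 and 0.152). In lambs TGFBR1 stood behind ACVR1 (7.96 against 16.9). ACVRL1 made up 38.4% of their sum in fetuses and 51.1% in lambs, and TGFBR1 18.3% and 6.19%. BMPR1A, which was not analysed here, is not in this sum.

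**Figure D3:**
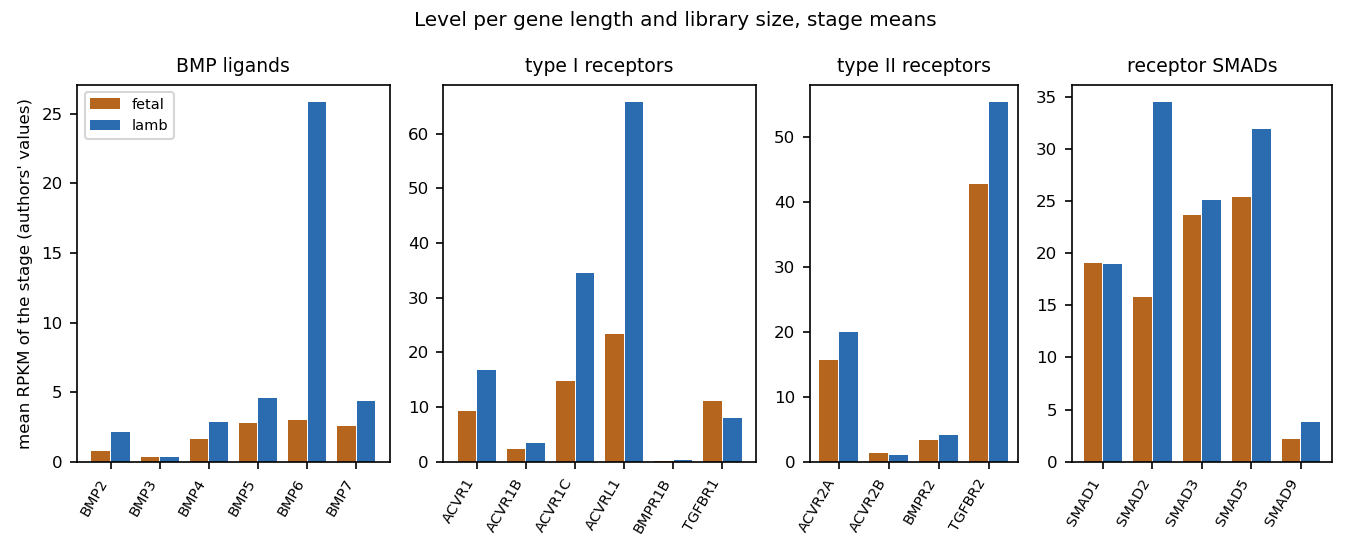
Authors' mean RPKM per stage of BMP ligands, type I receptors, type II receptors and receptor SMADs (bars from 0, no error available; members with counts only). The lamb bars of BMP6 (25.8) and ACVRL1 (65.7) stand above the others of their families, and RPKM is scaled by library totals, which sets lamb values higher than TMM does.

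Of the 4 type II receptor genes, 0 passed the test by edgeR and 0 by the DESeq2 Wald test, and 1, ACVR2B, had an unadjusted p under 0.05. TGFBR2, the TGF-beta binding receptor, had the highest level of them, 108, 87.6 and 94.4 CPM in fetal and 85.4, 96.6 and 86.0 CPM in lamb libraries (-0.11 ± 0.13, adjusted p = 0.488). BMPR2, the main BMP type II receptor, was at 15.01, 8.97 and 15.04 against 10.5, 12.0 and 12.3 CPM (-0.16 ± 0.21, adjusted p = 0.560). The stages overlapped for both. ACVR2A, shared by activins and BMP ligands, was at 17.5 ± 0.599 and 16.1 ± 2.83 CPM (-0.12 ± 0.16). ACVR2B was at 3.31 ± 0.393 and 1.96 ± 0.458 CPM, with every lamb value below the fetal ones (-0.76 ± 0.27, adjusted p = 0.0534), and it passed without lamb library 1 (0.0438, against 0.0438 to 0.484 over the alternatives). TGFBR2 held 67.7% and 68.8% of the summed RPKM of these receptors in fetuses and lambs.

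Counts of TGFBR1 per count of TGFBR2, the receptor it pairs with, were 0.170, 0.243 and 0.176 in fetuses and 0.113, 0.0655 and 0.127 in lambs. The lamb ratios were all below the fetal ones. TGFBR3 (betaglycan), which presents TGF-beta and inhibin, was at 172, 105 and 129 CPM in fetal and 236, 208 and 217 CPM in lamb libraries. The stages did not overlap (0.70 ± 0.19, adjusted p = 0.0181), and the call was lost without fetal library 3 or lamb library 1 (adjusted p 9.50e-04 to 0.0568 over the alternatives).

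Among the receptor SMADs, SMAD2 was higher and SMAD3 lower in lambs, although both carry TGF-beta and activin signals. SMAD2 (ENSOARG00000003654, chromosome 23, 47676716 to 47729518) was at 42.2, 38.9 and 39.9 CPM in fetal and 60.1, 59.5 and 75.3 CPM in lamb libraries. All lamb values exceeded the fetal ones (0.69 ± 0.13, adjusted p = 0.00385). SMAD3 (ENSOARG00000018276, chromosome 7, 13774171 to 13797299) was at 13.5, 12.2 and 11.8 against 8.75, 8.25 and 9.65 CPM, again without overlap (-0.49 ± 0.14, adjusted p = 0.0234).

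The SMAD3 call was not firm. With library totals its difference was -0.02, and it was also lost with the replicate block and without fetal library 1 or 2 or lamb library 1 or 2 (adjusted p 0.0218 to 0.937 over the alternatives). The ratio of the pair does not depend on scaling, but it cannot tell a rise of SMAD2 from a fall of SMAD3. By library totals the log2 ratio of SMAD2 was 1.16. The pair was also chosen after its values were seen, so the ratio adds no support to the SMAD3 difference. There were 3.12, 3.19 and 3.37 counts of SMAD2 per count of SMAD3 in fetuses and 6.87, 7.21 and 7.81 in lambs, with narrow spread in each stage. On the RPKM scale, per gene length, the ratio was 0.668 in fetuses and 1.37 in lambs.

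SMAD5, a BMP SMAD (ENSOARG00000014930, chromosome 5, 44761085 to 44974362), was at 28.0, 24.1 and 32.5 CPM in fetal and 17.1, 8.51 and 17.2 CPM in lamb libraries. Every lamb value was below the fetal ones, and lamb library 2 was the lowest. The difference of -0.98 ± 0.27 (adjusted p = 0.0204) lost its call with library totals (-0.53) and without fetal library 3 (adjusted p 0.00387 to 0.145 over the alternatives). The authors' mean RPKM of SMAD5 went the other way, from 25.3 to 31.9, a log2 ratio of 0.33, where the counts scaled by library totals gave -0.53. The annotated span of SMAD5 also holds TGFBI, LECT2 and rows named SMAD5-AS1. Whether the counts or the RPKM values describe SMAD5 better was not tested, and its direction is uncertain.

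SMAD1 and SMAD9, the other BMP SMADs, did not pass. SMAD1 was at 35.1 ± 4.74 and 29.9 ± 6.39 CPM (-0.23 ± 0.18), and SMAD9 at 6.87 ± 1.68 and 9.03 ± 2.47 CPM (0.39 ± 0.26). SMAD9 passed with library totals (adjusted p 0.0236 to 0.656 over the alternatives). SMAD4, the shared partner of all receptor SMADs, was at 43.6, 40.0 and 47.5 CPM in fetal and 52.0, 56.1 and 58.3 CPM in lamb libraries. Its stages did not overlap (0.34 ± 0.11, adjusted p = 0.0382). The SMAD4 call was lost without any 1 library other than lamb library 1, with the replicate block, with no filter on low counts and with library totals that leave out mitochondrial genes (adjusted p 0.00571 to 0.125 over the alternatives).

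Both inhibitory SMADs were higher in lambs. SMAD6, which mainly blocks BMP receptors and is itself induced by BMP signals (ENSOARG00000018258, chromosome 7, 13318677 to 13395361), was at 13.1, 10.4 and 8.65 CPM in fetal and 35.6, 50.9 and 63.0 CPM in lamb libraries. The lowest lamb library was above every fetal library. An unnamed row of the table lies within the span of SMAD6. The difference was 2.21 ± 0.24 (adjusted p = 4.03e-04), a 4.64-fold increase. SMAD7, which blocks TGF-beta as well as BMP receptors, was at 7.17, 6.25 and 6.15 against 9.93, 9.24 and 11.5 CPM. It rose by less, without overlap of the stages (0.65 ± 0.16, adjusted p = 0.0148), and it did not pass without fetal library 3 (adjusted p 0.00235 to 0.0519 over the alternatives). Counts of SMAD6 per count of SMAD7 were 1.82, 1.67 and 1.41 in fetuses and 3.59, 5.51 and 5.48 in lambs.

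**Figure D4:**
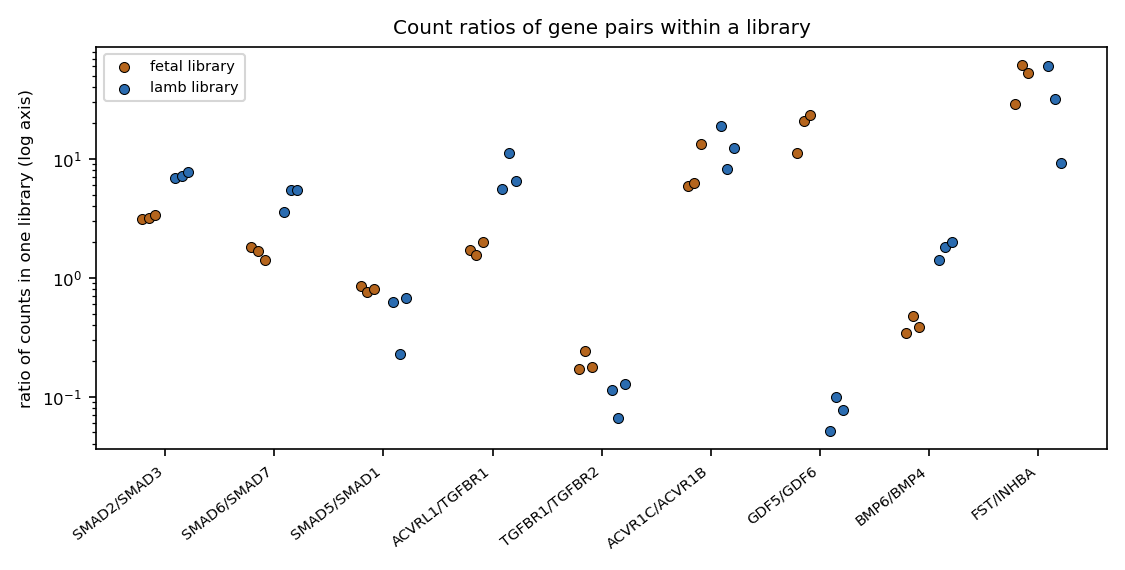
Counts of a gene per count of another gene of the family in each library, on a log axis, for 9 pairs chosen after the values were seen; scaling of libraries cannot change these ratios. Fetal and lamb points are separate for 7 pairs and overlap for ACVR1C per ACVR1B and FST per INHBA. Exact permutation of the libraries gave p = 0.1 for each of the 7, the smallest value possible with 3 against 3. No share over all gene pairs is given here, so the count of 7 is no result about these genes.

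Among secreted antagonists, FSTL1 and FSTL3 rose. FSTL1, a follistatin-like glycoprotein secreted by mesenchymal cells, was the most abundant member by counts, at 401, 279 and 389 CPM in fetal and 623, 556 and 598 CPM in lamb libraries (0.73 ± 0.17, adjusted p = 0.0108). FSTL3, which traps activins and myostatin (ENSOARG00000009153, chromosome 5, 40674209 to 40677991), was at 1.97, 1.03 and 2.15 against 4.89, 7.37 and 5.20 CPM (1.74 ± 0.33, adjusted p = 0.00409). The stages did not overlap for either gene.

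FST, follistatin itself, was at 34.4, 22.6 and 34.97 CPM in fetal and 60.3, 60.2 and 24.6 CPM in lamb libraries. Lamb libraries 1 and 2 were above all fetuses, while lamb library 3 lay within the fetal range. The difference of 0.66 ± 0.34 did not pass (adjusted p = 0.155). Without lamb library 3 it was 0.97 and passed (adjusted p = 0.00941, against 0.00941 to 0.366 over the alternatives), and it passed with library totals too. Counts of FST per count of INHBA overlapped, at 28.8, 61.4 and 53.3 in fetuses and 61.0, 32.2 and 9.30 in lambs. NOG, noggin, had at most 8 counts in any library.

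BMP1 and TGFBRAP1 match the naming rule but are neither ligands nor receptors of the family. BMP1, a procollagen protease, was at 104 ± 12.1 and 90.2 ± 28.1 CPM (-0.21 ± 0.22), and its difference was -0.49 and passed without lamb library 3 (adjusted p 0.0427 to 0.881 over the alternatives). TGFBRAP1, a trafficking protein that binds TGF-beta receptors, was at 17.6 ± 0.926 and 18.4 ± 1.95 CPM (0.07 ± 0.13), and it passed with library totals (adjusted p 0.0389 to 0.986 over the alternatives).

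Other genes of the pathway were taken from a list in which 65 names had a row. The list was chosen with earlier results of these data known, so its counts are no independent support for those of the members. Of 55 tested, 28 were higher in lambs, 4 were lower and 23 did not pass, with a median difference of 0.51 against -0.01 for all genes tested, of which 22.0% were higher and 22.7% lower. With library totals 40 were higher and 2 lower. Without lamb library 1 there were 2 lower, and without fetal library 1 there was 1. Counts per sublist that follow are from few genes and stand beside the same shares of all genes.

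Of 16 genes of ligand latency and activation, 8 were higher and 2 lower. THBS1 (thrombospondin), which can activate latent TGF-beta, was at 29.5, 28.1 and 31.2 CPM in fetal and 259, 753 and 171 CPM in lamb libraries (3.73 ± 0.54, adjusted p = 0.00133). Lamb library 2 stood far above the other lambs, and without it the difference was 2.86. The proprotein convertases FURIN and PCSK6, which cleave ligand precursors, rose by 2.02 ± 0.14 and 2.05 ± 0.24. DCN (decorin), which binds TGF-beta in the matrix, was at 485 ± 169.8 and 1149.7 ± 119 CPM (1.25 ± 0.25, adjusted p = 0.00546). FBN2, a fibrillin of fetal microfibrils, was at 18.5, 10.2 and 12.2 against 1.43, 6.54 and 1.75 CPM (-2.08 ± 0.56, adjusted p = 0.0190). Its difference was -3.09 without lamb library 2, and its call was lost without fetal library 1 and without lamb library 1 or 3 (adjusted p 4.81e-04 to 0.0562 over the alternatives). ITGB8, an integrin subunit that activates TGF-beta, fell by 1.58 ± 0.42, a call lost without fetal library 1 and with library totals.

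Among 7 tested antagonists outside the naming rule, 3 were higher and 1 lower. CHRDL1, a chordin-like BMP antagonist, was at 182, 119 and 162 CPM in fetal and 547, 350.2 and 518 CPM in lamb libraries (1.61 ± 0.23, adjusted p = 0.00120). CRIM1, which holds BMP precursors at the cell surface, was at 65.4 ± 0.717 and 134 ± 12.8 CPM (1.03 ± 0.12). CHRD, chordin, was at 1.61 ± 0.359 and 3.599 ± 1.204 CPM (1.15 ± 0.34), a call lost with the replicate block and without fetal library 1 or 2 or lamb library 2 or 3. WFIKKN2, which binds myostatin and GDF11, was at 24.5, 23.8 and 23.1 against 2.17, 7.06 and 3.35 CPM (-2.51 ± 0.38, adjusted p = 0.00153), and at -3.10 without lamb library 2. Fetal values lay close together and far above every lamb value.

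Of 5 tested co-receptors and further ligand or receptor genes, 2 rose, ENG and RGMB. RGMB, a BMP co-receptor, was at 5.80, 5.74 and 5.97 CPM in fetal and 28.2, 18.0 and 8.80 CPM in lamb libraries (1.65 ± 0.38, adjusted p = 0.0102). BAMBI, a decoy receptor, was at 1.64 ± 1.15 and 1.46 ± 0.852 CPM (-0.18 ± 0.59), and its direction turned with library totals, without fetal library 1 and without lamb library 1 or 3.

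Of 15 intracellular regulators, 9 were higher and 1 lower. TGIF1 and SKIL, transcriptional corepressors of SMADs, rose by 2.26 ± 0.17 (5.18 ± 0.128 to 24.8 ± 4.55 CPM) and 1.52 ± 0.23. SMURF2, a ubiquitin ligase for receptors and SMADs, rose by 1.05 ± 0.14. STRAP, which binds SMAD7 at the receptor, fell by 0.43 ± 0.13 on the log2 scale, but its difference was 0.04 with library totals and its call was lost without any 1 library other than lamb library 3.

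Of 12 tested target genes, 6 were higher and 6 did not pass, where 44.7% of all genes tested passed and 22.0% were higher. Of the 6 that did not pass, COL1A1 (-0.84 ± 0.33), COL1A2 (-0.62 ± 0.32) and POSTN (-0.06 ± 0.25) had negative differences. Adjusted p was 0.0745 for COL1A1 and 0.157 for COL1A2. TGFBI (0.51 ± 0.26), HEY1 (0.43 ± 0.21) and ATOH8 (0.43 ± 0.22) had positive ones. An unadjusted p under 0.05 was seen for 7 targets, with 1 of them, COL1A1, lower. The DESeq2 Wald test called 6 targets, 1 of them lower. ID1 and ID3 are textbook targets of BMP signalling that inhibit differentiation factors. ID1 was at 30.5, 36.4 and 37.9 CPM in fetal and 61.4, 68.4 and 73.8 CPM in lamb libraries (0.96 ± 0.13, adjusted p = 9.65e-04). ID3 was at 69.5, 73.6 and 64.7 against 138, 139.8 and 143 CPM (1.02 ± 0.11, adjusted p = 3.69e-04). Neither gene overlapped between the stages, and both calls held in all 13 alternatives. The row named ID2 had 0 counts in every library, though its mean RPKM by the authors was 0.230 in fetuses and 0.183 in lambs. ID4 was not analysed here.

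CTGF, a matrix protein induced by TGF-beta among other signals, was at 7.53, 4.34 and 4.48 CPM in fetal and 35.8, 60.9 and 57.9 CPM in lamb libraries (3.23 ± 0.29, adjusted p = 1.82e-04). JUNB, an AP-1 factor, was at 18.8 ± 3.18 and 89.1 ± 8.03 CPM (2.24 ± 0.15). TAGLN, a smooth muscle protein induced by TGF-beta, overlapped between the stages, at 93.4, 55.6 and 33.9 against 82.5, 289 and 141 CPM (1.49 ± 0.51, adjusted p = 0.0452). Its difference was 0.88 without lamb library 2, and the call was lost there, without fetal library 2 or 3 or lamb library 3, with the replicate block and with the DESeq2 Wald test (adjusted p 0.00552 to 0.145 over the alternatives). Lamb library 2, which was also the highest for THBS1, had a summed level of 7 smooth muscle and pericyte markers of 1475 CPM, against 398.9 to 747 CPM in the other libraries. TAGLN is itself among these 7 markers. The part of those markers in the THBS1, FBN2, WFIKKN2 and TAGLN values of lamb library 2 was not tested.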

How the data were processed

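RNA-seq was done on perirenal fat of 3 fetuses and 3 lambs (single-end 50 bp reads, RNA integrity scores above 9, per the labels' protocols). Per the series' design text, the authors used the Ensembl models of the Oar v3.1 assembly for mapping in CLC Genomics Workbench 7.0, and they deposited raw counts per gene. The RPKM values are the authors' stage means, per the file headers. They carry no replicate error and were used only to describe levels and shares per gene length, and where counts and RPKM differ, with no test. A further 6 columns of RPKM per library were not used, because a header repeats a sample name, and the deposited prefiltered table was not used.

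Counts were tested with edgeR 4.0.16 in R 4.3.3 (quasi-likelihood F test, TMM, filterByExpr, Benjamini-Hochberg adjustment over 13624 genes, threshold 0.05). DESeq2 1.42.0 was an alternative. Library totals were 15907128 to 19150428 counts. The scripts were tested on simulated data with 200 changed genes. The simulated stages otherwise had the same make-up, without the shift in mitochondrial counts, so the choice of scaling was not tested there. Strand use in counting is not stated. Members and lists were chosen with earlier results of these data known. Values in every library are given for members past the test at 1 CPM or more. Pathway genes are named by size of change, up to 3 per direction in a sublist, beside a few named in advance. Target genes that did not pass are named with their differences only. The 9 count ratios were chosen after their values were seen.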

Additional observations from a re-analysis of the deposited data

How the results depend on the processing

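Among 13 alternatives, 8 of the 19 member calls held throughout and 11 did not. Higher members numbered 8 to 14 and lower members 3 to 5 when 1 library was left out, the fewest higher without fetal library 2. Higher pathway genes numbered 23 to 26 and lower ones 1 to 6. Scaling by library totals raised the share of higher genes among all genes called from 49.3% to 79.3%, and gave 20 members higher, 2 lower, and 2 pathway genes lower. Under it, differences of some members and of some pathway genes followed singly turned positive, since the scaling moves all genes up. These were TGFB2 (0.18), BMP3 (0.019), GDF1 (0.062), GDF11 (0.29), ACVR2A (0.35), BMPR2 (0.28), TGFBR2 (0.35), SMAD1 (0.23), BMP1 (0.25), STRAP (0.044) and BAMBI (0.27). Library totals without the mitochondrial genome, an alternative chosen after seeing the data, gave 12 higher and 4 lower.

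Among these genes, leaving out 1 library turned the differences of 4 whose tests did not pass. Target genes that did not pass and pathway genes not named in the text were not followed singly. The differences of BMP3 ranged from -0.887 (without lamb library 2) to 0.081 (without lamb library 3). Those of ACVR2A ranged from -0.22 (without lamb library 3) to 0.020 (without lamb library 2). For GDF9 they ranged from -0.097 (without fetal library 1) to 0.15 (without fetal library 2), and for BAMBI from -0.76 (without lamb library 2) to 0.53 (without fetal library 1). The cause was not tested. GDF6 could not be tested without the mitochondrial genes.

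Same-numbered fetal and lamb libraries did not deviate together (correlations 0.0033, -0.116 and 0.046). With the replicate block, 13 members were higher and 3 lower, and 24 pathway genes higher and 4 lower. Low counts limit GDF5, GDF6, BMP2 and INHBA.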
